A study of Homo sapiens with 4 samples.

Results

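Genes of the thioredoxin, glutaredoxin and glutathione systems were followed in SUM149 cells exposed to Ricolinostat. The 10 genes are GLRX, TXNIP, TXN, TXNRD1, HMOX1, NQO1, GCLM, GCLC, SRXN1 and SLC7A11, and they were chosen by name from the annotation of the array, which lists 34755 genes. Each of them was read by 1 probe, so the set held 10 of the 58201 probes. The set was put together with measured changes of these same arrays in view, the high values of GLRX and TXNIP among them, so all changes from the untreated array are given below as a description and none of them was tested.

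SUM149 is a human line of inflammatory breast cancer cells, and Ricolinostat (ACY1215) is an inhibitor of the cytoplasmic deacetylase HDAC6. The cells were left untreated or were kept in 2.5 uM of the drug for 3, 6 or 12 h, and RNA of each condition was hybridised to 1 array, 4 arrays in all. Each array carried the sample in the Cy5 channel and, in the Cy3 channel, a reference that the labels call a pool of treated and untreated SUM149 cells. With 1 array per condition and no vehicle-treated arrays of later times analysed here, time in culture, solvent and drug cannot be told apart, and no difference between conditions could be set against the spread between cultures.

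Cells keep their cysteines reduced with a pair of systems that both draw on NADPH. Thioredoxin is recharged by thioredoxin reductase and is bound and inhibited by TXNIP, while glutaredoxin removes glutathione from proteins and is recharged by glutathione itself. The transcription factor NRF2, which KEAP1 holds at a low level in unstressed cells, drives many genes of both systems, and NQO1, HMOX1, SRXN1, TXN, TXNRD1, SLC7A11 and the subunits of glutamate-cysteine ligase are its textbook targets.

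All changes are differences of the normalized log2 ratio of Cy5 over Cy3 from the untreated array, so the values at 3, 6 and 12 h share that array. Probes printed at least 9 times gave the spread between spots of one array pair, with a median SD of 0.11 on the log2 scale at each of the 3 times (300 probes). This SD covers spots only. Between 63.3% and 67.0% of genes were well above background in Cy5 on an array. Local areas with deviating reference signal or flagged spots took up 3.33% of the untreated array, 4.59% of the 3 h array, 0.186% of the 6 h array and 0% of the 12 h array. Of 11 breast epithelial markers 9 were above background on all 4 arrays, with Cy5 signals of 975.5 to 41408 units on the untreated array, and CDH1 among them was at least 2-fold higher at 6 and 12 h (1.03 and 1.32). The remaining markers, KRT6A and KRT14, were above background in Cy5 at 3, 6 and 12 h. Their untreated spots were flagged and lay in a damaged area. A second KRT14 probe, measured on all arrays, changed by -0.54, -0.79 and -0.39 at 3, 6 and 12 h. Of 9 markers of other cell types 7 were above background, at 40 to 349 units against a local background of 24 units, and COL3A1 and HBB were above background on no array. HDAC6 itself changed by -0.41, -0.25 and -0.51 at 3, 6 and 12 h, and by -0.25, 0.00 and -0.20 on a second probe.

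The reference did not look like its label. On the 4 arrays the log2 ratio of ALB, the albumin gene of liver, was -7.03 to -6.95, that of CD3D, a T cell gene, was -4.36 to -4.27, and that of the keratin gene KRT5 was 3.89 to 4.14. A pool of these samples alone would lie near the samples it was made from, and these values go against that. ALB, CD3D and KRT5 were among the markers furthest from the reference. Others lay nearer to it, such as PECAM1 (-0.38) and ESR1 (0.15) on the untreated array. Of the 10 genes TXNIP was below the reference on all 4 arrays, and TXN, TXNRD1, NQO1 and GCLC were above it on all 4. The Cy3 content was not settled here, so a ratio is read only against the same gene on another array.

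Of the 10 genes, 9 had a change from the untreated array at every time. GCLM had none, because its spot on the untreated array carried an outlier flag and lay in a damaged area. At 3 h, 2 of the 9 genes, GLRX and TXNIP, were at least 2-fold higher, where 1.69% of all 20765 genes measured were. At 6 h only GLRX of the 9 was past 2-fold, where 2.81% of 20342 genes were higher, and at 12 h again only GLRX, where 2.34% of 20478 genes were. None of the 9 was 2-fold lower at any time, where 0.366%, 0.939% and 1.12% of genes were at 3, 6 and 12 h. These shares stand beside the counts as background only, since the contrast had a part in the choice of genes.

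With a limit of 1.5-fold, GLRX and TXNIP were higher at 3 h and at 6 h, and GLRX alone at 12 h, beside 6.87%, 9.4% and 8.1% of all genes. On the lower side HMOX1 passed that limit at 3 h, SLC7A11 passed it at 6 h and none of the 9 did at 12 h, beside 1.96%, 4.42% and 5.13% of all genes. The median change over all genes was 0.01, 0.02 and 0.01 at 3, 6 and 12 h.

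**Figure D1:**
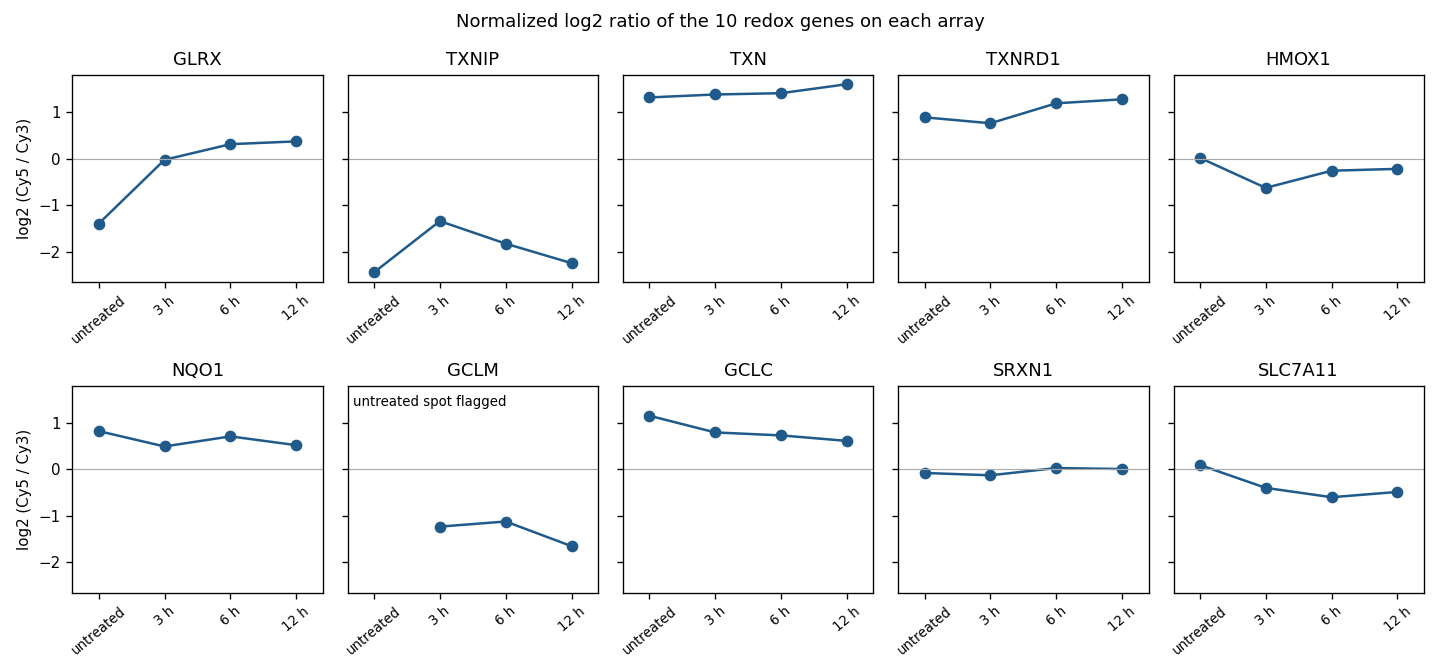
Normalized log2 ratio of Cy5 over Cy3 for each of the 10 genes on the untreated, 3 h, 6 h and 12 h arrays; each point is 1 array and there are no replicates. GLRX went from -1.40 untreated to -0.03, 0.31 and 0.37, TXNIP peaked at -1.34 at 3 h and was back at -2.25 at 12 h, and the other genes moved within a narrower band.

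GLRX, which codes for cytosolic glutaredoxin, changed most among the 9 genes. Its log2 ratio was -1.40 on the untreated array, -0.03 at 3 h, 0.31 at 6 h and 0.37 at 12 h. All 3 treated arrays were thus above the untreated one, and the last step between them was small. The changes were 1.38, 1.71 and 1.77, or 2.59-fold, 3.27-fold and 3.41-fold. From the top of all genes measured, GLRX held rank 93 of 20765 at 3 h, rank 62 of 20342 at 6 h and rank 43 of 20478 at 12 h. Between 6 and 12 h it moved by 0.06, which was within the SD between spots for that step (0.07). Outside the damaged areas, 126 of 18589 genes (0.678%) were at least 2-fold higher at 3, 6 and 12 h alike, and GLRX was one of them. This class was set with the values of GLRX known, so the share is background only. GLRX belongs to it through its 3 h ratio, which gives no firm level, as described next.

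At 3 h the reference signal of the GLRX spot was low. The Cy5 signal of its spot was 854.5 units on the untreated array, 1320 at 3 h, 2329 at 6 h and 2338.5 at 12 h. The Cy3 signal, which should not vary with treatment, was 1675.5, 891, 1512 and 1652 units on the same arrays. After normalization Cy3 of this spot fell by 0.85 at 3 h, and Cy5 alone gave changes of 0.41, 1.53 and 1.67. Of the 85 spots around it 18 also had a Cy3 signal lower by 0.5 or more at 3 h. These 18, picked for their low reference, had median changes of -0.78 in Cy3, -0.55 in Cy5 and 0.42 in the ratio, where the ratio over all 85 had a median of 0.02. The sample signal was thus low in those spots too, and whether the GLRX spot lost Cy5 in the same way was not tested, so neither its ratio nor its Cy5 at 3 h gives a firm level. With the processed signals of the scanning software the 3 h change was 0.91. The higher level of GLRX at 6 and 12 h was kept with either reading, and its 2-fold call at 3 h was not.

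**Figure D2:**
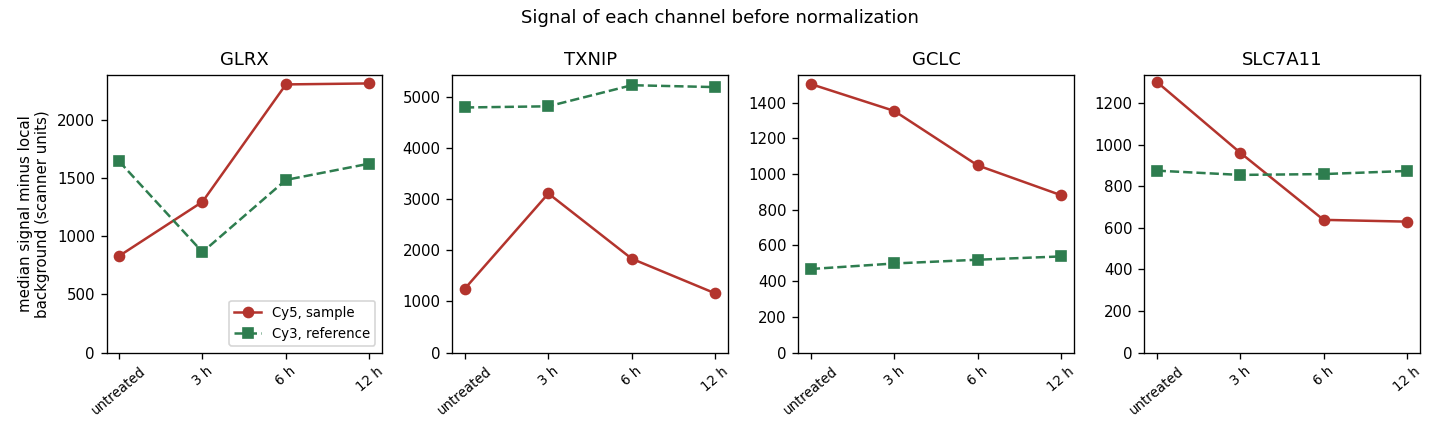
Background-subtracted spot signals in scanner units for GLRX, TXNIP, GCLC and SLC7A11 on the 4 arrays, before normalization, with Cy5 (sample) as circles and Cy3 (reference) as squares; 1 array per point, signal axes start at 0. The reference of GLRX dipped at 3 h, while that of the other 3 genes stayed nearly level and their sample signal carried the change.

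The RefSeq promoter window of GLRX, taken as 250 bases before the gene start to 50 after it on GRCh38.p14, held a pair of CCAAT boxes. The stretch at chr5:95822869-95822976, minus strand, is shown for them, with the boxes in capitals.
GLRX: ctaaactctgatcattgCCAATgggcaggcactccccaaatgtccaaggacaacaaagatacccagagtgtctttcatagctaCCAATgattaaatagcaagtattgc
The motif ATTGG on either strand occurred in 34.6% of all 35116 promoter windows, so GLRX shares this match with many genes. Neither the core of the antioxidant response element, TGACNNNGC, nor the AP-1 site TGACTCA, nor the E-box CACGTG was found in this window on either strand.

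Among the paralogs of GLRX, which are named here for their family and not for their values, GLRX5, a mitochondrial protein of iron-sulfur cluster assembly, changed by 0.49, 0.77 and 0.85. GLRX3 changed by 0.28, 0.35 and 0.29. Its 12 h value turned to -0.06 when arrays were centred on their median, which moved the median of all genes to -0.16. GLRX2 changed by -0.04, -0.14 and -0.33. None of the 3 was past 2-fold. The 5 genes whose 3 changes lay nearest to those of GLRX, by Euclidean distance among 18589 genes, were TPMT, DACT1, ZNF204P, CHST2 and ELF3, at distances of 0.12 to 0.22. In Cy5 alone these 5 changed by 0.93 to 1.41 at 3 h, where GLRX gave 0.41.

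TXNIP, the inhibitor of thioredoxin and an alpha-arrestin that also limits glucose uptake, was high at 3 h and low again at 12 h. The log2 ratio of TXNIP was -2.45 untreated, -1.34 at 3 h, -1.83 at 6 h and -2.25 at 12 h. The highest of the 4 arrays was the 3 h array, and the untreated and the 12 h array were the lowest. The changes were 1.10, 0.62 and 0.20, or 2.15-fold, 1.54-fold and 1.15-fold. The ratio fell by 0.48 from 3 to 6 h and by 0.42 from 6 to 12 h, against SDs between spots of 0.10 and 0.07 for these steps. At 12 h the remaining 0.20 turned to -0.16 when arrays were centred on their median, a setting that moved the median of all genes to -0.16.

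The channel signals followed this course. Cy5 of the TXNIP spot was 1275.5, 3133, 1857.5 and 1180 units on the untreated, 3 h, 6 h and 12 h arrays. Cy3 was 4816, 4840, 5251 and 5215 units, and none of the 88 spots around it had a reference lower by 0.5 or more at any time. Cy5 alone gave changes of 1.08, 0.64 and 0.13. A level at least 2-fold higher at 3 h with a 12 h value within 1.5-fold of untreated was found for 20 of 18589 genes outside damaged areas (0.108%), TXNIP among them. These limits were set with the course of TXNIP known, so the share is background only and does not test how unusual that course was.

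The genes nearest to TXNIP in their 3 changes were ZNF395, VSNL1, OSBPL7, RPL23AP32 and TMEM65, at distances of 0.11 to 0.22. The first 3 of these had 3 h changes of 0.93 to 1.03 in the ratio but of -0.66, -0.07 and -0.45 in Cy5 alone, so their likeness to TXNIP was one of ratios. RPL23AP32 and TMEM65 gave 0.79 and 1.48 in Cy5 alone.

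TXNIP transcription responds to glucose through carbohydrate response elements that bind MondoA and MLX, and a half-site of this element is CACGAG. One of its RefSeq promoter windows held this half-site at positions -88 and -77 from the gene start. The stretch at chr1:145996631-145996687, minus strand, is shown for the spacing of these half-sites, in capitals.
TXNIP: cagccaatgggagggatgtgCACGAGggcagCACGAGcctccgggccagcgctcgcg
CACGAG was found on either strand in 6.78% of all promoter windows. Among the other genes of the set that had a window, it was found only for TXNRD1. ARRDC4, an alpha-arrestin that shares this control with TXNIP, changed by 0.80, 0.85 and 0.66, and by 0.79, 0.73 and 0.41 in Cy5 alone. Where TXNIP was near its untreated level at 12 h, ARRDC4 was above it under all 10 other settings. Of 9 genes measured in the list of alpha-arrestins and the MondoA and MLX system, none was 2-fold higher or lower at any time. In so short a list this is near the shares of all genes past 2-fold given above. The list medians were 0.20, -0.06 and 0.19.

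TXN codes for cytosolic thioredoxin, the protein that TXNIP binds. On the untreated, 3 h, 6 h and 12 h arrays TXN had log2 ratios of 1.32, 1.38, 1.41 and 1.60, and the 4 values lay close together. The changes were 0.06, 0.09 and 0.28, of which the first and second were below the SD between spots. The sign of all 3 depended on the reading, with -0.27 at 3 h in Cy5 alone and -0.21 and -0.23 at 6 and 12 h when arrays were centred on their median. That centring moved the median of all genes to -0.08 at 6 h and -0.16 at 12 h. No level difference of TXN past 1.5-fold was seen in any of these settings.

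TXNRD1 codes for thioredoxin reductase and is itself an NRF2 target. Its log2 ratio was 0.89 untreated, 0.76 at 3 h, 1.19 at 6 h and 1.28 at 12 h, so the 6 and 12 h arrays were above the untreated one and the 3 h array below it. The changes were -0.13, 0.30 and 0.39, the first of them close to the SD between spots. The probe was dim, at 428 to 518 units of Cy5, and Cy5 alone gave -0.02 at 3 h and 0.34 and 0.36 later. SRXN1, sulfiredoxin, which repairs overoxidised peroxiredoxins, was the flattest of the 9 genes. Its log2 ratio was -0.08, -0.13, 0.03 and 0.01, and its changes of -0.05, 0.11 and 0.08 were below the SD between spots. The sign of the SRXN1 change was turned by median centring at all 3 times and by other settings at 6 and 12 h, and Cy5 alone gave -0.46 at 3 h, where 13 of the 86 spots around it had a low reference and a median Cy5 change of -0.77.

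Both subunits of glutamate-cysteine ligase, the first enzyme of glutathione synthesis, are in the set. GCLC, the catalytic subunit, had log2 ratios of 1.16 untreated, 0.80 at 3 h, 0.73 at 6 h and 0.61 at 12 h. Each later array was below the one before it, but the step of -0.06 from 3 to 6 h was within the SD between spots (0.10). The changes were -0.36, -0.42 and -0.54, or 1.28-fold, 1.34-fold and 1.46-fold lower. The change kept its sign under all 10 other settings and ranged from -0.85 to -0.48 at 12 h. The Cy5 signal went from 1528.5 units untreated to 1377, 1073 and 903, with Cy3 between 494 and 567.5.

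GCLM, the modifier subunit, could be followed only among the treated arrays. Its log2 ratio was -1.23 at 3 h, -1.12 at 6 h and -1.65 at 12 h, with Cy5 signals of 12139, 10488 and 7129 units. The 12 h array was the lowest of the 3. The ratio moved by 0.11 from 3 to 6 h and fell by 0.53 from 6 to 12 h, against SDs between spots of 0.10 and 0.07. Over that last step GCLC changed by -0.12. The untreated spot read 1176.5 units of Cy5 and 9503 of Cy3, and it was not used.

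SLC7A11 codes for the cystine importer xCT, which brings in the cysteine for glutathione. Of the 9 genes it fell furthest from untreated at 6 and 12 h, with GCLC close to it at 12 h (-0.54). The log2 ratio of SLC7A11 was 0.10 untreated, -0.40 at 3 h, -0.60 at 6 h and -0.48 at 12 h. All 3 treated arrays were below the untreated one, with steps of -0.20 and 0.11 between them. The changes were -0.49, -0.69 and -0.58, or 1.41-fold, 1.62-fold and 1.49-fold lower, and 3.11%, 2.89% and 5.22% of genes measured were lower still. The Cy3 signal stayed between 883 and 901 units, and Cy5 alone gave -0.61, -0.88 and -0.76. SLC3A2, the heavy chain that carries xCT to the membrane, changed by -0.73, -0.82 and -0.95 and had the largest change of its list.

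HMOX1 codes for haem oxygenase, which breaks down haem, and its probe was printed 10 times, so that its spread between spots was measured directly. The mean log2 ratio was 0.02 untreated, -0.63 at 3 h, -0.26 at 6 h and -0.22 at 12 h. All treated arrays were below the untreated one and the 3 h array was the lowest. How far the later arrays came back depended on the setting. Median centring gave changes of -0.55 at 3 h and -0.48 at 6 h, where it moved the median of all genes to 0.08 and -0.08. At 12 h the settings ranged from -0.58 to -0.24. Cy5 alone gave -0.58, -0.38 and -0.30 at 3, 6 and 12 h. Spot by spot the change was -0.63 ± 0.09 (SD, n = 9 spots) at 3 h, -0.28 ± 0.09 (SD, n = 10 spots) at 6 h and -0.24 ± 0.10 (SD, n = 10 spots) at 12 h. Every spot was below 0 at every time, with a range of -0.83 to -0.47 at 3 h. The tenth spot was flagged and lay in a damaged area at 3 h. These are repeated spots of 1 hybridisation, not separate cultures.

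**Figure D3:**
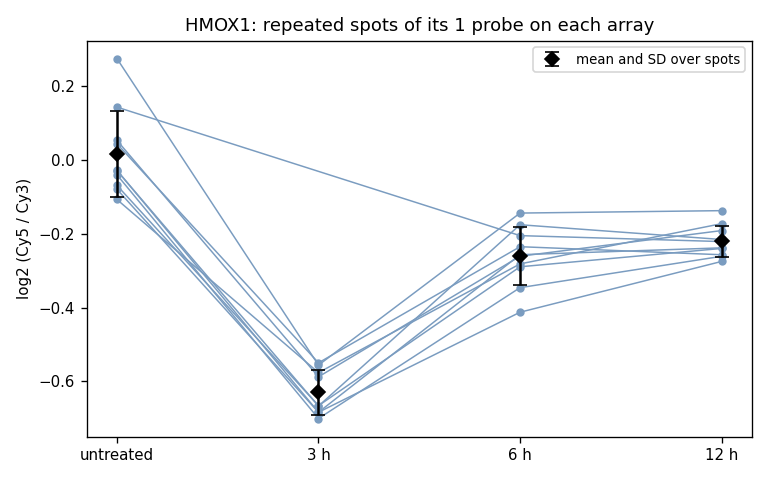
Log2 ratio of Cy5 over Cy3 for each of the 10 spots of the HMOX1 probe on the 4 arrays, with lines joining the same spot and black diamonds giving the mean with its SD over spots. In this normalized ratio, all spots were lower at 3 h than untreated and came part of the way back at 6 and 12 h. The size of this return depended on the setting, and the spot without a 3 h value was flagged at that time.

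NQO1, a quinone reductase and a common readout of NRF2 activity, had log2 ratios of 0.82 untreated, 0.49 at 3 h, 0.71 at 6 h and 0.52 at 12 h. The untreated array was the highest of the 4. The changes were -0.33, -0.11 and -0.30, and at 6 h the change was about the SD between spots. Its sign was negative under all 10 other settings at each time. Cy5 was 317.5 to 485 units, so a background offset of 50 units could pull these changes toward 0.

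Across the set, the 7 NRF2 targets with a change from untreated fell on both sides of 0 at 12 h. GCLC, HMOX1, NQO1 and SLC7A11 were below it at all 3 times, TXNRD1 was above it from 6 h on, and SRXN1 and TXN had no settled sign. None of the 7 was 1.5-fold higher at any time, where 6.87%, 9.4% and 8.1% of all genes were at 3, 6 and 12 h. Finding none among 7 genes is near these shares.

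**Figure D4:**
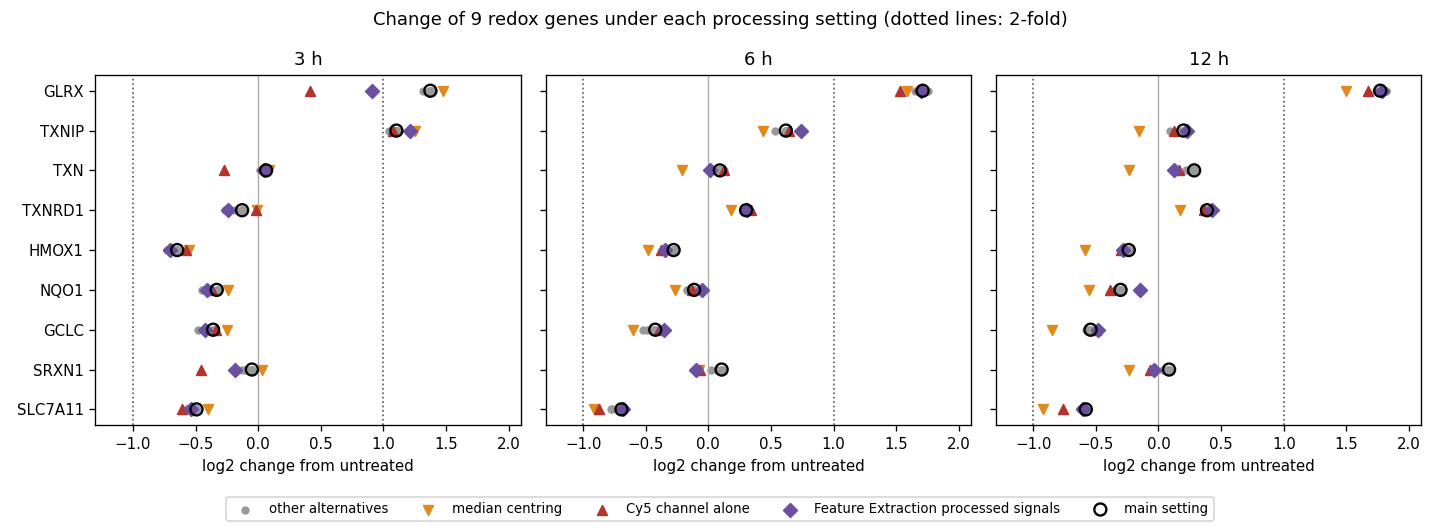
Change of log2 ratio from the untreated array at 3, 6 and 12 h for 9 genes under each processing setting; open circles are the values in the text, coloured marks are median centring, Cy5 alone and the scanning software's signals, grey dots the other settings, and dotted lines 2-fold. GLRX at 3 h spread from 0.41 to 1.48, while its 6 h values stayed between 1.53 and 1.75.

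HMOX1 and SLC7A11 had no promoter window here and were not searched for motifs. The core of the antioxidant response element, TGACNNNGC, was searched on both strands in the 10 RefSeq promoter windows of the other 8 genes. It was present in 3 of these windows, those of GCLM and TXNRD1, and in 13.3% of all 35116 windows. The 3 stretches below surround it, in capitals, at chr12:104215660-104215708 and chr12:104286910-104286958, plus strand, for the TXNRD1 starts and at chr1:93909436-93909484, minus strand, for GCLM.
TXNRD1 upstream start: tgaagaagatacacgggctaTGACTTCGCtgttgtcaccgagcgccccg
TXNRD1 downstream start: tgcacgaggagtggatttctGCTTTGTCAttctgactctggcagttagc
GCLM: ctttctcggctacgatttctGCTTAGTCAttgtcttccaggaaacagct
These genes had unlike courses among the treated arrays, since TXNRD1 was 0.52 higher at 12 h than at 3 h and GCLM was -0.42 on the same comparison. The window of the upstream TXNRD1 start held another match to the core, GCTCCGTCA at positions -8 to 1, which is not shown. A window of this length leaves out more distant elements.

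The wider redox system was read through 6 further lists, in which the 10 genes were not counted. At 3, 6 and 12 h, 1.69%, 2.81% and 2.34% of all genes measured were at least 2-fold higher. The shares at least 2-fold lower were 0.366%, 0.939% and 1.12%. Finding no gene past 2-fold in lists this short is near these shares. Of 12 genes for NRF2 and its regulators, KEAP1, the adaptor that sends NRF2 to degradation, was the only one past 2-fold. Its probe was printed 10 times, and its change was -0.89 ± 0.11 (SD, n = 8 spots) at 3 h, -1.34 ± 0.13 (SD, n = 9 spots) at 6 h and -1.29 ± 0.11 (SD, n = 9 spots) at 12 h. KEAP1 was below untreated in every spot, with -0.93, -1.69 and -1.45 in Cy5 alone. NFE2L2, named as the gene of NRF2 itself, changed by 0.26, 0.29 and 0.48, with 0.12 at 12 h in Cy5 alone and 1.09 with the scanning software's signals. The list medians were 0.08, 0.00 and 0.07.

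Of 23 further NRF2 targets measured, none was 2-fold higher at any time, which in so short a list is near the shares above. ABCC3, an exporter of organic anions, was 2-fold lower at 12 h. It changed by -0.52, -0.61 and -1.01, and a second ABCC3 probe gave -0.28 at 12 h. At 12 h 16 of the 23 were above 0 and 7 below, with a median of 0.14, which turned to -0.14 with median centring. That setting moved the median of all genes to -0.16. The list median was 0.03 at 3 h and 0.08 at 6 h.

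Of 19 genes measured in the thioredoxin, glutaredoxin and peroxiredoxin family, TXNRD3, a thioredoxin reductase of testis, was 2-fold higher at 3 h (1.01), with its untreated spot in a damaged area. MSRA, a methionine sulfoxide reductase, changed by 0.05, -0.32 and -1.06 and was the only one of the 19 that was 2-fold lower at 12 h, with -0.98 in Cy5 alone. The list medians were 0.05, -0.02 and 0.12. Of the genes for glutathione synthesis and use none was past 2-fold, with medians of -0.10, 0.00 and -0.03. In the list for superoxide and peroxide removal none of 6 was past 2-fold either, the medians were 0.08, 0.20 and 0.28, and catalase (CAT) changed most at 12 h, by 0.60.

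**Figure D5:**
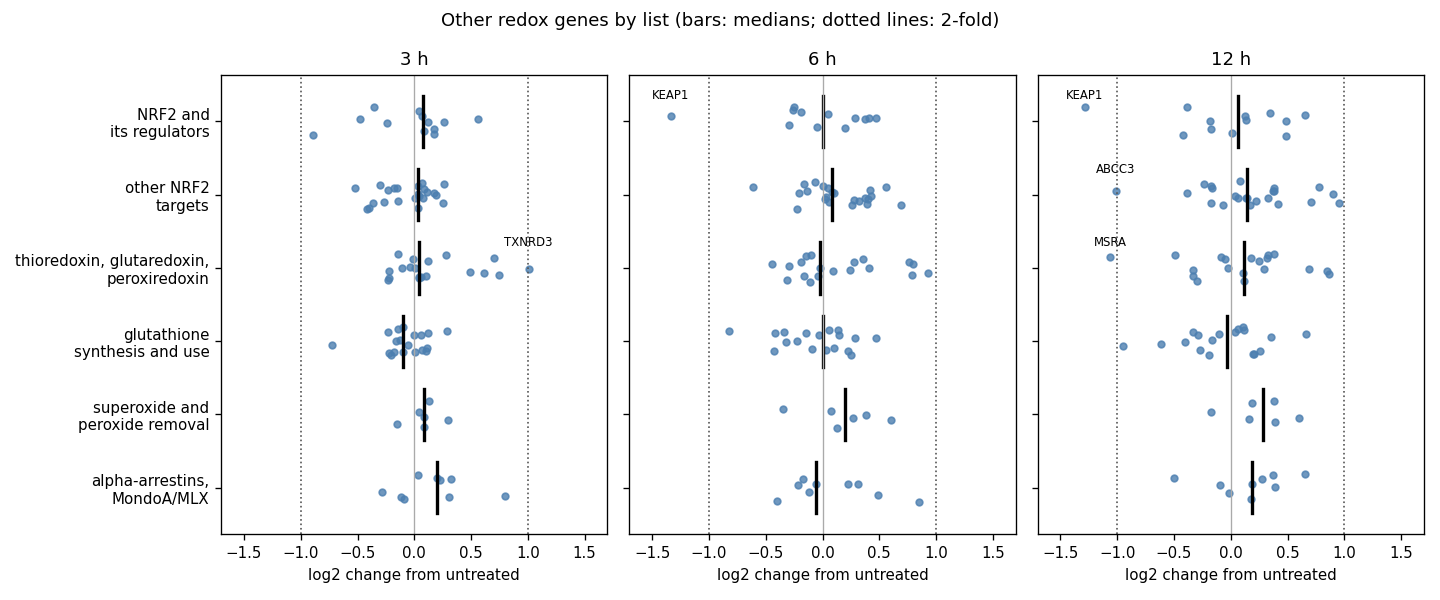
Change of log2 ratio from the untreated array at 3, 6 and 12 h for each measured gene of the 6 further lists; points are genes, black bars list medians and dotted lines 2-fold. Most genes lay between the dotted lines, and KEAP1, ABCC3, MSRA and TXNRD3 are the labelled exceptions.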

How the data were processed

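RNA of 4 SUM149 conditions was hybridised to 4 two-colour Agilent arrays of 1 slide, scanned together, so no batch could be tested. The authors deposited spot intensity values and local backgrounds from Feature Extraction 12.0.1.1, with a log10 ratio and flags per spot. A second deposited table holds log2 ratios already normalized by the authors, by a method not given in the sources used here. Its gene symbols were used, and its values served as an alternative.

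Median spot intensities were background-corrected by normexp (offset 50). Control spots were left out, flagged outlier spots set aside, and arrays normalized by loess and Aquantile (limma 3.58.1, R 4.3.3), checked on simulated data. Repeated spots were averaged, and each gene was read from its probe of highest mean Cy3. A gene was measured where both channels of both arrays were well above background. The offset pulls changes of dim probes toward 0. Precision is limited by the number of arrays, and no test was possible with 1 array per condition. A damaged area was a window of 13 by 7 spots with at least 10% defective ones (flagged, or Cy3 over 2-fold from the median of the arrays). Named genes are the 10 genes, list genes past 2-fold or with the largest 12 h change, HDAC6 and the 5 nearest genes of GLRX and TXNIP. Outside this rule, marker genes, GLRX paralogs and NFE2L2 are named for what they are, and the genes of the last observations after their values were seen. Members and lists were chosen with earlier results of these data known. Promoters are from RefSeq tables (GRCh38.p14), which matched 8 of the 10 genes.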

Additional observations from a re-analysis of the deposited data

Results flagged for a closer look

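TXNRD1 was below the untreated array at 3 h (-0.13) and above it at 6 h (0.30) and at 12 h (0.39), so its direction differed between 3 h and each later time. The 3 h value was close to the SD between spots (0.11) and ranged from -0.27 to -0.01 over the settings. The difference was not tested, since there was 1 array per time. Cy5 alone gave -0.02 at 3 h.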

How the results depend on the processing

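Of 72 counts of the 9 genes under the alternatives, 64 stayed within 1.5 times the value in the report. Of 270 single-gene changes 224 moved by less than the SD between spots, and 491 of 540 list values stayed by the same limits. A 4-fold limit left 0 genes higher at 3, 6 or 12 h, and a 1.5-fold limit gave 2 higher at 6 h, 1 lower at 3 h and 1 lower at 6 h. At 3 h 1 gene, TXNIP, was 2-fold higher with the scanning software's signals and 1, again TXNIP, with Cy5 alone. The Aquantile step left all ratios as they were. Counts of all genes past 2-fold moved too, for example from 351 higher at 3 h to 688 with an offset of 1 and 677 with the scanning software's signals.

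Median centring moved the median of all genes to 0.08, -0.08 and -0.16 at 3, 6 and 12 h. It gave medians of 0.20 (3 h), -0.21 (6 h) and -0.29 (12 h) for NRF2 and its regulators, -0.087 (6 h) and -0.14 (12 h) for further NRF2 targets, -0.22 (6 h) and -0.27 (12 h) for the thioredoxin family, -0.17 (6 h) and -0.35 (12 h) for glutathione genes with 1 gene 2-fold lower at 6 h and 1 at 12 h, 0.20, -0.0075 and -0.087 for peroxide removal, and 0.31, -0.28 and 0.0019 for alpha-arrestins. Cy5 alone gave medians of -0.088 at 3 h for NRF2 regulators and, at 12 h, of 0.033 for further targets, -0.073 for the thioredoxin family, 0.15 for peroxide removal and -0.067 for alpha-arrestins. It gave 1 glutathione gene 2-fold lower at 3 h, 1 further target 2-fold higher at 12 h, and in the thioredoxin family 2 higher at 6 h, 2 higher at 12 h and 0 lower at 12 h. The scanning software's signals gave 1 NRF2 regulator lower at 3 h and 1 higher at 12 h, 1 further target higher and 2 lower at 12 h, 2, 2 and 1 higher in the thioredoxin family at 3, 6 and 12 h, and for alpha-arrestins a median of -0.055 at 3 h (1 higher at 6 h). The authors' table gave 2 and 2 higher in the thioredoxin family at 3 and 6 h, glutathione medians of -0.11 and -0.15 at 6 and 12 h, and 0 further targets lower at 12 h, as did the mean of all probes (0). In the thioredoxin family, 3 and 2 were higher at 3 and 6 h without background subtraction, 3, 2 and 1 at 3, 6 and 12 h with an offset of 1, where 1 further target was higher at 12 h, and 0 at 3 h outside damaged areas. Causes were not tested. Without replicates, there was none to leave out.

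No paired analysis was possible because 1 array stood for each condition.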

Other observations

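The genes of this section were chosen after their values were seen. The 4 highest of the further NRF2 targets at 12 h were SLC48A1, AKR1B10, BLVRB and FTH1. SLC48A1, a haem transporter, changed by 0.25, 0.69 and 0.95 at 3, 6 and 12 h, while a second probe gave 0.55 at 12 h. AKR1B10, an aldo-keto reductase, changed by 0.03, 0.56 and 0.90. BLVRB, a biliverdin reductase, changed by 0.07, 0.32 and 0.78. FTH1, ferritin heavy chain, changed by 0.03, 0.42 and 0.70, but by 0.06 at 12 h in Cy5 alone, and FTL, the light chain, changed by 0.37 at 12 h, with -0.07 after median centring and 0.04 and 0.08 on its other probes.

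In the thioredoxin family MSRB1, a methionine sulfoxide reductase with selenocysteine, changed by 0.61, 0.93 and 0.86, in the opposite direction to MSRA at 12 h (-1.06). SESN1, a sestrin, changed by 0.74, 0.79 and 0.32.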
